A study of Mus musculus with 8 samples.

Results

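The insulin-like growth factor (IGF) system was followed here through 10 transcripts measured in whole mouse kidney. They are the ligand Igf1, the receptors Igf1r and Igf2r, and the binding proteins Igfbp1 to Igfbp7. The genes were taken by name, with earlier results of these data known: each is the row of the count files whose Ensembl identifier pairs with that symbol, and all 10 were found among 37583 gene rows. All 10 passed the filter on low counts that left 15228 genes for testing. The series holds 8 kidney libraries. Of these, 4 libraries, replicates 1 to 4, are labelled knockout and come from b-actinCreERT2+TFAP2Bfl/fl mice, in which tamoxifen activates Cre, expressed from a beta-actin promoter, to delete floxed Tfap2b. The other 4, also numbered 1 to 4, are labelled WT, and the series describes them as littermate controls. The sources used here do not give the age of the animals, nor whether the controls carried floxed alleles or received tamoxifen. A beta-actin promoter is active in most cell types, so the deletion is not limited by design to one nephron segment. Nothing in the labels says that each library is a separate animal, and p-values measure the spread between these libraries.

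IGF-1 is a growth hormone-dependent peptide that signals through the tyrosine kinase receptor encoded by Igf1r, while the product of Igf2r, the cation-independent mannose 6-phosphate receptor, carries IGF-2 to lysosomes. In extracellular fluid most IGF is held by high-affinity binding proteins, which prolong its life and limit its access to receptors. IGF is released when proteases such as PAPP-A, encoded by Pappa, cut binding proteins, and stanniocalcins inhibit PAPP-A. In kidney the system is known for its part in growth, in glomerular filtration and in compensatory hypertrophy.

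Depth was similar in both groups, at 13435113 to 17930347 gene counts per library. Proximal tubule markers, which define kidney tissue, were present throughout: their summed level over 7 genes was 5828 CPM (counts normalised to library size) or more in every library. Tfap2b, the gene targeted by the deletion, was counted more often under the knockout label, where it stood at 237.0 to 266.5 CPM, than under the wildtype label, at 94.3 to 110.5 CPM. Those counts take in exons that the deletion may leave in place and so do not check it, and every direction below is that of libraries labelled knockout against libraries labelled wildtype. Knockout 4 held adrenal cortex RNA, with 184.6 CPM over 5 steroidogenic genes against at most 1.56 CPM in the other libraries. A clock score was formed from mean log2 CPM of circadian clock genes. It is that of Dbp, Tef, Per1, Per2, Per3, Nr1d1, Nr1d2 and Ciart less that of Arntl, Npas2, Clock and Nfil3. The score averaged -0.67 ± 1.15 for the knockout label and 1.70 ± 1.20 for the wildtype label (SD, n = 4 each), with knockout 1 at 0.978 above wildtype 1 at 0.215. In bulk tissue, fewer cells of a type and less RNA per cell cannot be told apart.

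Of the 10 transcripts 3 fell, Igfbp3, Igfbp4 and Igfbp5, and none rose (edgeR, adjusted p under 0.05). Over all genes tested, 5.70% fell and 6.23% rose. At an unadjusted p under 0.05 edgeR had 4 members lower and 1 higher. DESeq2 called 4 lower and 1 higher, and limma voom 4 lower and 0 higher. Igfbp1 was the fourth lower member and Igf1 the higher one. Of all 15228 genes tested, 4133 had an unadjusted p under 0.05 with edgeR in either direction. DESeq2 called 2417 genes in all and limma voom 1821. Of the 10 log2 fold changes 7 were below 0, with a median of -0.23 against 0.00 for all genes tested. For Igfbp4 and Igfbp5 all 4 libraries labelled knockout were below all 4 labelled wildtype, a pattern seen in 9.05% of genes tested. The members that fell are the 3 most abundant binding proteins after Igfbp7, which did not pass the test.

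**Figure D1:**
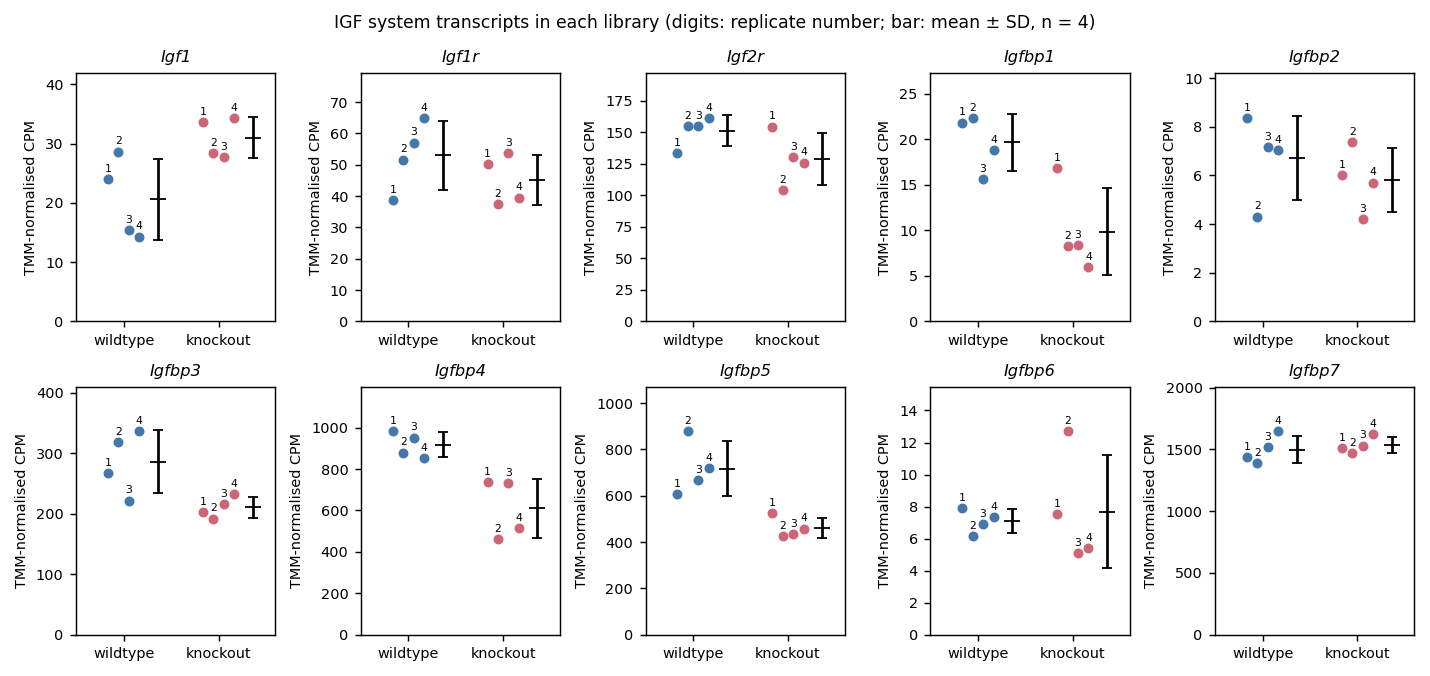
Level of each IGF system transcript in TMM-normalised CPM (vertical axis, from 0) in the 4 libraries of each group, with digits for the replicate number and a bar for mean ± SD. For Igfbp4 and Igfbp5 the groups do not overlap, and Igfbp7 lies between 1391.7 and 1646.9 CPM in every library.

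Levels can be compared between genes only after division by length, taken here as the annotated exon length of each gene. On that scale Igfbp7 was the highest of the 10, at 1240 ± 93.0 CPM per kb in libraries labelled wildtype (SD, n = 4). Igfbp4 followed at 207.6 ± 13.8, Igfbp5 at 119 ± 19.4 and Igfbp3 at 91.3 ± 16.6 CPM per kb. The ranges of Igfbp5 and Igfbp3 overlapped, so their order is not settled, whereas Igfbp7, Igfbp4 and Igfbp5 did not overlap with each other. Igf2r, at 16.2 ± 1.30 CPM per kb, and Igfbp1, at 12.9 ± 2.04, overlapped. Igfbp6 stood at 6.37 ± 0.67 CPM per kb. The lowest levels were those of Igfbp2, at 3.64 ± 0.93, Igf1r, at 3.16 ± 0.66, and the ligand Igf1 itself, at 2.08 ± 0.70 CPM per kb, each overlapping with its neighbour. In the libraries labelled knockout Igf1, at 3.13 ± 0.35 CPM per kb, stood above Igf1r, at 2.69 ± 0.47, and Igfbp6 above Igfbp1, but in both pairs the ranges overlapped there.

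**Figure D2:**
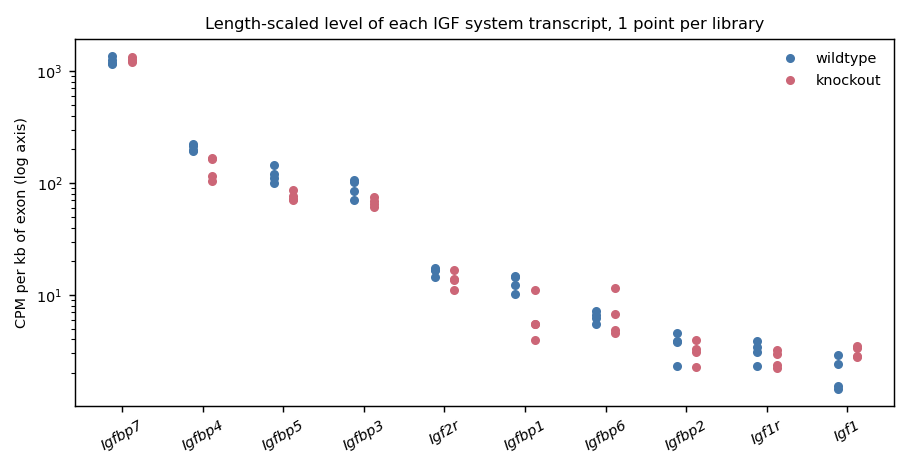
Length-scaled level of each transcript in CPM per kb of exon (log axis), 1 point per library, ordered by the mean in libraries labelled wildtype. Igfbp7 stands above Igfbp4, Igfbp5 and Igfbp3, and Igfbp2, Igf1r and Igf1 lie lowest.

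The IGF-binding proteins with high affinity, Igfbp1 to Igfbp6, together came to 441 ± 21.7 CPM per kb (SD, n = 4) under the wildtype label and 299 ± 37.3 (SD, n = 4) under the knockout label. The ranges, 418 to 470 and 258 to 340 CPM per kb, did not overlap. The makeup of this sum was similar in the groups: Igfbp4 made up 47.2% ± 4.88 and 45.8% ± 5.48, Igfbp5 27.0% ± 3.25 and 25.8% ± 2.25, and Igfbp3 20.6% ± 3.09 and 22.8% ± 3.22. These sums describe the levels and carry no test.

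The promoters of the 3 transcripts that fell are shown because the deleted gene encodes AP-2 beta, a DNA-binding factor of the AP-2 family, whose consensus is a palindrome of GCC and GGC around a short spacer. The 250 bases before the annotated start were read from RefSeq (build GRCm38.p6, 5′ to 3′ on the gene's strand), and capitals mark matches to GCCNNNGGC or GCCNNNNGGC.
Igfbp5, chr1:72874866-72875115, minus strand: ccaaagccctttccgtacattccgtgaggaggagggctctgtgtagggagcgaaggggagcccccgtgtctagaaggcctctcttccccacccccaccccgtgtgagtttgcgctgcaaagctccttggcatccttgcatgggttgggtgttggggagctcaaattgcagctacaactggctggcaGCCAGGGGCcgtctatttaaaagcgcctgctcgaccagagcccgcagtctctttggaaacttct
Igfbp4, chr11:99040994-99041243, plus strand: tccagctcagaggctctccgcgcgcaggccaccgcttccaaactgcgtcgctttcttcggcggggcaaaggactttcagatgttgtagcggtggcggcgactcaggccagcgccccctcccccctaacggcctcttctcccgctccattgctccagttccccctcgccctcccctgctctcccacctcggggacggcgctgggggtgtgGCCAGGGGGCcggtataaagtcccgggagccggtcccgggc
Igfbp3, chr11:7213924-7214173, minus strand: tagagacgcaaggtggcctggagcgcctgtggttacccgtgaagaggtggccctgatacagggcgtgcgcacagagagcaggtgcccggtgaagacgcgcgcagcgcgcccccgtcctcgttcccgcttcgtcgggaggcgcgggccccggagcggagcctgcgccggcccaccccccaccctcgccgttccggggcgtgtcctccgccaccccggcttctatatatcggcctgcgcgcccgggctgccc

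Igfbp5 holds 1 match with the shorter spacer, starting 64 bases before the start, and Igfbp4 holds 1 with the longer spacer, 41 bases before it. Igfbp3 holds neither in this window. Both motifs read the same on either strand. Among all 10 members the shorter form occurs in Igfbp5 and the longer one in Igf1 and Igfbp4. The windows of Igfbp3, Igfbp4 and Igfbp5 were matched to a transcript start in GENCODE, another annotation. Those of Igf1, Igf1r, Igf2r and Igfbp6 and the first of Igfbp2 were not, so their place at a start is less sure. Of 32851 such windows in the table, 13.7% hold the shorter form and 12.3% the longer. A match describes letters, not binding.

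Igfbp5 encodes a binding protein that also attaches to extracellular matrix. It stood at 525.3, 425.5, 434.2 and 458.7 CPM in knockout 1 to 4 and at 606.1, 878.4, 666.1 and 719.9 CPM in wildtype 1 to 4. Every library labelled knockout was below every one labelled wildtype, with wildtype 2 the highest. The level was 1.56-fold higher in libraries labelled wildtype (log2 fold change -0.64 ± 0.12 (SE), edgeR adjusted p = 0.00604, the smallest of the 10). The exact two-sided permutation test gave p = 0.0286, the lowest that 4 against 4 allows. The call held without any single library. When the clock score was added to the model Igfbp5 did not pass, at -0.47 ± 0.17 (edgeR adjusted p = 0.155). That score differed between the labels, so this model cannot cleanly tell label and score apart, here or for other genes.

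Igfbp4 encodes a binding protein that mainly restrains IGF until PAPP-A cuts it. Its levels were 736.2, 462.8, 731.2 and 514.7 CPM in knockout 1 to 4 and 982.2, 879.7, 952.2 and 852.1 CPM in wildtype 1 to 4. The groups did not overlap, and the libraries labelled knockout fell into a higher pair, 1 and 3, and a lower pair, 2 and 4. The log2 fold change was -0.58 ± 0.15 (SE; edgeR adjusted p = 0.0288), and p was 0.0286 by exact permutation. The call was lost without knockout 2 or knockout 4 (edgeR adjusted p = 0.0577 and 0.081) and without wildtype 1, 2 or 3 (0.0705, 0.0549 and 0.0706). It was also lost when the clock score was in the model (-0.50 ± 0.23, edgeR adjusted p = 0.255) and without knockout 1 and 4 together (0.0744).

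Igfbp3 encodes the main IGF carrier of plasma, which forms a ternary complex with the acid-labile subunit. It stood at 202.5, 192.2, 216.3 and 232.5 CPM in knockout 1 to 4 and at 267.1, 318.3, 221.8 and 336.5 CPM in wildtype 1 to 4. The groups overlapped through wildtype 3, which lay below knockout 4. The log2 fold change was -0.44 ± 0.12 (SE; edgeR adjusted p = 0.0421; exact permutation p = 0.0571). This call was the least firm of the 3: it was lost with library totals in place of TMM factors (-0.33, edgeR adjusted p = 0.0799), with the clock score in the model (-0.55, 0.151) and without knockout 1 and 4 together (0.132). It was lost without knockout 1, 2, 3 or 4 (edgeR adjusted p = 0.0818, 0.12, 0.072 and 0.0592) and without wildtype 1, 2 or 4 (0.0626, 0.104 and 0.104), while without wildtype 3 the log2 fold change was -0.55 (0.0107).

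Markers of several kidney cell types were lower beside these binding proteins. Of 8 endothelial markers 2 fell, Kdr and Flt1, which encode VEGF receptors, none rose, and all 8 log2 fold changes were below 0 (median -0.29). Their summed level was 528 to 613 CPM in libraries labelled knockout and 600.3 to 777 CPM in those labelled wildtype. Proximal tubule markers fell in 3 of 7, with sums of 5828 to 9270 and 10671 to 12644 CPM. Markers of the thick ascending limb fell in 5 of 5 (median -0.91), with sums of 5047 to 5887 and 8651 to 10857 CPM, and those of the distal convoluted tubule in 5 of 5 (median -1.21), with sums of 2176 to 2447 and 6146 to 6708 CPM. Within a group, single libraries went both ways. Wildtype 1 had the lowest proximal tubule sum of its group and the highest Igfbp4. It also had the highest endothelial sum, 776.6 CPM beside 774.0 CPM in wildtype 4, and the lowest Igfbp5. Under the knockout label, proximal tubule sums ran in the order of Igfbp4, at 9270, 5828, 9079 and 7614 CPM in knockout 1 to 4. Wildtype 3 had the lowest endothelial sum and the lowest Igfbp3 of its group. Wildtype 2 had the highest proximal tubule sum and the highest Igfbp5. Only some lists and members are set side by side here, without the thick ascending limb and distal convoluted tubule, and such matches in order carry no test. The part of these markers in the fall of Igfbp3, Igfbp4 and Igfbp5 was not tested.

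Igfbp1 encodes a small binding protein whose transcription is repressed by insulin in liver. It stood at 16.8, 8.3, 8.4 and 6.0 CPM in knockout 1 to 4 and at 21.8, 22.4, 15.6 and 18.9 CPM in wildtype 1 to 4. Of the libraries labelled knockout, 2, 3 and 4 were below all those labelled wildtype, and knockout 1 lay within the wildtype range. The log2 fold change, -0.98 ± 0.29 (SE), was larger in size than those of the 3 members that fell, but it did not pass (edgeR adjusted p = 0.0598; exact permutation p = 0.0571). It passed without knockout 1 (-1.37 ± 0.17, edgeR adjusted p = 0.000825), without knockout 1 and 4 (0.00391) and with a replicate block (0.0275). It also passed with DESeq2 (adjusted p = 0.00333) and with limma voom (adjusted p = 0.0309). These were 5 of 17 other settings. The log2 fold change was -0.71 with the clock score in the model (edgeR adjusted p = 0.381) and -0.81 without knockout 4 (0.104). Hepatocyte markers were low, at 54.4 to 135 CPM summed over 5 genes in libraries labelled knockout and 90.6 to 152 CPM in those labelled wildtype, and none passed the test, nor did any at an unadjusted p under 0.05 or with DESeq2 or limma voom. Their part in the Igfbp1 values was not tested.

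The other binding proteins gave no call. Igfbp7, which encodes a secreted relative with low affinity for IGF, stood at 1508.3, 1471.4, 1530.4 and 1624.9 CPM in knockout 1 to 4 and at 1435.3, 1391.7, 1520.9 and 1646.9 CPM in wildtype 1 to 4. Its log2 fold change was 0.03 (95% interval -0.15 to 0.22; edgeR adjusted p = 0.839), and it turned to -0.0021 without wildtype 2. Igfbp7 made up 80.9% ± 2.06 of the length-scaled sum of all 7 binding proteins under the knockout label and 73.7% ± 2.03 under the wildtype label (SD, n = 4 each). Igfbp2 lay between 4.2 and 8.4 CPM in all libraries, with a log2 fold change of -0.21 (95% interval -0.69 to 0.28; edgeR adjusted p = 0.59). Its estimate ranged from -0.37 without wildtype 2 to -0.09 without wildtype 1 and -0.07 without knockout 3. Igfbp6, an IGF-2-preferring binding protein, lay between 5.1 and 7.9 CPM in 7 libraries and at 12.7 CPM in knockout 2 (log2 fold change 0.12, 95% interval -0.47 to 0.72; edgeR adjusted p = 0.809). Without knockout 2 its log2 fold change was -0.23 (edgeR adjusted p = 0.51). Knockout 2 also held the highest summed level of 6 adipocyte markers, 1403 CPM, the others holding 272 to 1075 CPM, and the part of this in its Igfbp6 value was not tested.

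Of the 7 binding protein genes, 4 lie as 2 pairs of neighbours, and in each pair 1 gene was called. Igfbp1 and Igfbp3 have 0 protein-coding genes between them in RefSeq, as do Igfbp2 and Igfbp5. In the first pair both log2 fold changes were below 0, at -0.98 and -0.44, and Igfbp3 was called. In the other pair Igfbp5 fell by 0.64 on the log2 scale, and Igfbp2, far lower in level, had -0.21. The difference within a pair was not tested.

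Igf1, the ligand, was the member with the largest upward estimate. Its level was 33.6, 28.3, 27.7 and 34.3 CPM in knockout 1 to 4 and 24.0, 28.6, 15.4 and 14.3 CPM in wildtype 1 to 4. The libraries labelled knockout lay close together, whereas those labelled wildtype split into 1 and 2, near the knockout level, and 3 and 4 below. The log2 fold change of 0.60 ± 0.21 (SE; 95% interval 0.11 to 1.08) did not pass with edgeR (adjusted p = 0.107; exact permutation p = 0.0857). It passed in 2 of 17 other settings, with DESeq2 (adjusted p = 0.0323) and, in edgeR, without wildtype 2 (0.80, adjusted p = 0.0244). The estimate was 0.42 with the clock score in the model (edgeR adjusted p = 0.532). It was 0.45 without knockout 1 and 4 (0.411), 0.48 without wildtype 3 (0.211) and 0.45 without wildtype 4 (0.18). Macrophages and fibroblasts are both known sources of IGF-1. Of 8 macrophage markers 7 rose, with sums of 234 to 333 CPM in libraries labelled knockout and 159 to 186 CPM in those labelled wildtype. Csf1r, the macrophage marker with the highest level, did not pass, with means of 106.8 CPM (knockout) and 106.7 CPM (wildtype). Of 9 fibroblast and pericyte markers 5 rose, all of them collagen or proteoglycan genes, with sums of 748 to 1146 and 469 to 599.8 CPM. Pdgfra, Pdgfrb, Acta2 and Tagln did not pass. The part of these markers in the Igf1 values was not tested.

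Neither receptor passed the test. Igf1r stood at 50.2, 37.5, 53.7 and 39.5 CPM in knockout 1 to 4 and at 38.7, 51.7, 57.0 and 64.9 CPM in wildtype 1 to 4. Wildtype 1 and wildtype 2 lay within the knockout range. Its log2 fold change was -0.23 (95% interval -0.61 to 0.14; edgeR adjusted p = 0.414), ranging from -0.36 without wildtype 1 to -0.15 without knockout 2 and -0.12 without wildtype 4. Igf2r stood at 154.5, 103.8, 130.5 and 125.9 CPM against 133.6, 155.0, 155.0 and 161.3 CPM, with knockout 1 inside the wildtype range (log2 fold change -0.23, 95% interval -0.48 to 0.01; edgeR adjusted p = 0.206). It passed without knockout 1 (-0.33, edgeR adjusted p = 0.0492). With the clock score in the model both estimates were near 0, at 0.07 for Igf1r and 0.02 for Igf2r. Igf2r is overlapped on the opposite strand by Airn, a non-coding RNA. The count files carry a not-stranded label in their names, so strand could not assign reads from stretches shared by the 2. Reads counted to Airn were few, at 2.18 to 5.14 CPM. Igfbp7 is likewise overlapped by Polr2b, a subunit of RNA polymerase, at 76.6 to 97.2 CPM. These overlaps are of whole gene spans, and exons shared by the genes were not looked for.

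**Figure D3:**
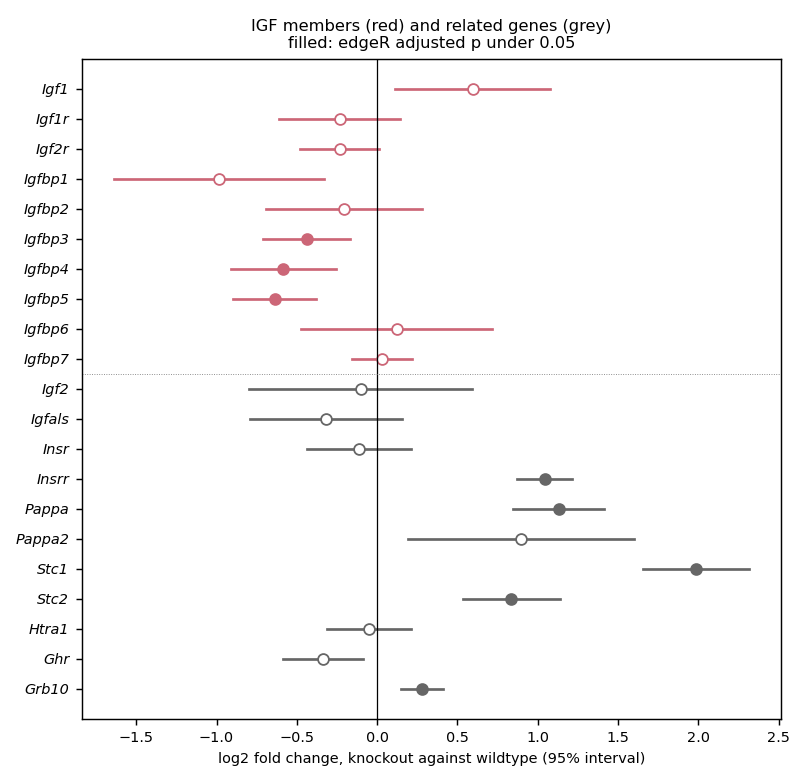
Log2 fold change, libraries labelled knockout against wildtype (horizontal axis, 95% interval), of the 10 IGF members in red and 11 related genes in grey. Filled points passed the edgeR test: Igfbp3, Igfbp4 and Igfbp5 lie below 0, and Insrr, Pappa, Stc1, Stc2 and Grb10 above 0.

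Around the members, Pappa, Stc1 and Stc2, which encode a protease of the binding proteins and its inhibitors, rose. Of 44 further genes of the IGF and insulin pathway, 40 were tested, 5 rose, none fell and 35 did not pass. The share called was 12.5% against 11.9% of all genes tested, and the median log2 fold change was -0.08. For 7 of the 40 every library labelled knockout was the higher, a pattern seen in 9.42% of all genes tested. For 2 of the 40 every library labelled knockout was the lower, a pattern seen in 9.05%. At an unadjusted p under 0.05 edgeR had 7 higher and 7 lower, where 4133 of all 15228 genes tested had such a p. DESeq2 called 6 rising and 1 falling, beside 2417 genes in all. With limma voom these were 5 and 0, beside 1821 genes in all. Pappa, Stc1 and Stc2 belong to a group of 5 tested proteases, protease inhibitors and relatives, of which Pappa2 and Htra1 did not pass. The calls of Pappa and Stc1 held under all 17 other settings, and that of Stc2 under 16.

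Pappa encodes the metalloprotease PAPP-A, which cuts the products of Igfbp4 and Igfbp5. It stood at 25.6, 34.7, 31.5 and 40.9 CPM in knockout 1 to 4 and at 15.4, 15.2, 14.2 and 15.7 CPM in wildtype 1 to 4. The groups were well apart, and the log2 fold change was 1.13 ± 0.13 (SE; edgeR adjusted p = 0.00039). Its relative Pappa2 lay at 2.9, 4.6, 2.8 and 1.9 CPM against 1.5, 1.2, 2.6 and 1.3 CPM, with wildtype 3 inside the knockout range (log2 fold change 0.89 ± 0.32, edgeR adjusted p = 0.0958). Pappa2 passed without wildtype 3 (1.21, edgeR adjusted p = 0.0425).

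Stc1 and Stc2 encode stanniocalcins, secreted glycoproteins that inhibit PAPP-A. Stc1 stood at 17.2, 20.5, 18.0 and 22.6 CPM in knockout 1 to 4 and at 5.3, 6.1, 4.0 and 4.4 CPM in wildtype 1 to 4. The highest wildtype library was well below the lowest knockout library, and the log2 fold change was 1.98 ± 0.15 (SE; edgeR adjusted p = 2.31e-05). Stc2 was at 12.6, 14.5, 13.7 and 14.4 CPM against 8.2, 9.5, 6.2 and 7.1 CPM. These groups did not overlap either (0.84 ± 0.14, edgeR adjusted p = 0.00321), and the call was lost with the clock score in the model (0.58, adjusted p = 0.112). Htra1, a serine protease that can also cut binding proteins, had a log2 fold change of -0.05 (95% interval -0.31 to 0.21; edgeR adjusted p = 0.831). Other lists rose beside Pappa, Stc1 and Stc2. Principal cell markers rose in 4 of 4 (median 0.91), with sums of 926 to 1675 CPM under the knockout label and 567 to 822 CPM under the wildtype label. Tubular injury markers rose in 5 of 6 (median 1.55), with sums of 262 to 288 and 125 to 155 CPM, and fibroblast and pericyte markers in 5 of 9, as given beside Igf1. The part of these markers in the rise of Pappa, Stc1 and Stc2 was not tested.

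**Figure D4:**
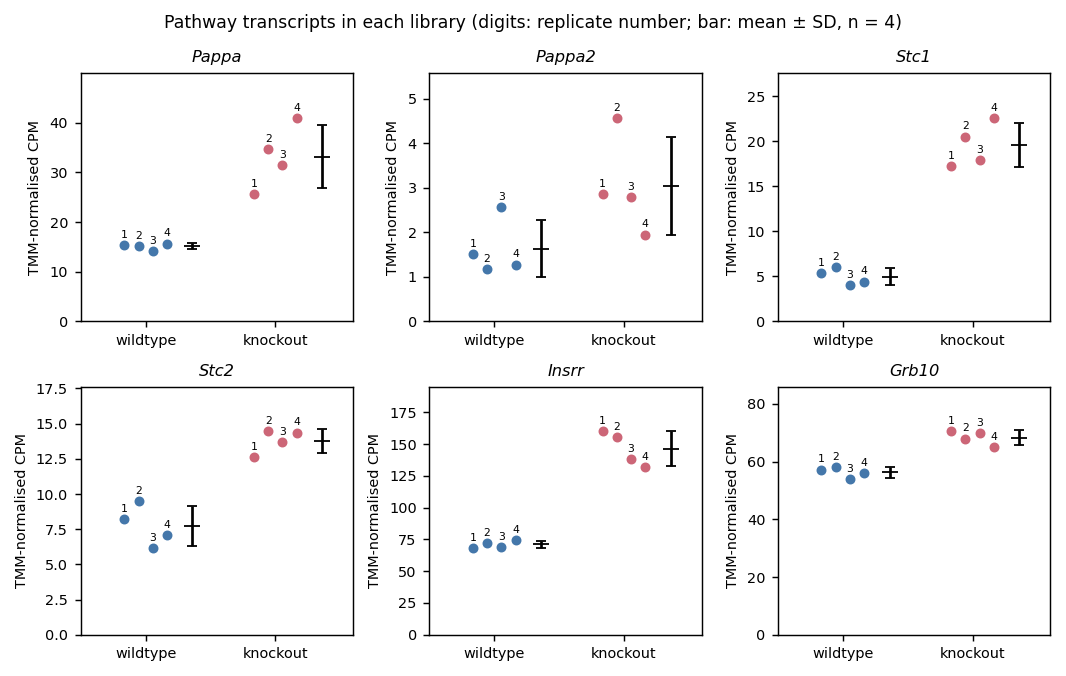
Levels of 6 pathway transcripts in TMM-normalised CPM (vertical axis, from 0) in each library, with digits for the replicate number and a bar for mean ± SD. The groups do not overlap for Pappa, Stc1, Stc2, Insrr and Grb10, and overlap for Pappa2.

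Among receptors and adaptors, Insrr and Grb10 rose. Insrr, an insulin receptor relative that senses alkaline pH and is found in intercalated cells, went from 71.1 ± 2.79 to 146 ± 13.6 CPM (SD, n = 4 each; log2 fold change 1.04 ± 0.077 (SE), edgeR adjusted p = 2.14e-05). Of 4 intercalated cell markers 3 rose beside it, with sums of 720 to 901 and 365 to 454 CPM. The other, Slc4a1, did not pass (log2 fold change -0.20, edgeR adjusted p = 0.317), and Slc26a4 had the highest mean of the 4 in both groups. The part of these markers in the Insrr values was not tested. Grb10, an imprinted adaptor that dampens insulin and IGF receptor signalling, rose with a log2 fold change of 0.28 ± 0.060 (SE; edgeR adjusted p = 0.0128), and lost the call without knockout 1 and 4 (0.0611) and with the clock score (0.145). The insulin receptor gene Insr had -0.11 (95% interval -0.44 to 0.21; edgeR adjusted p = 0.661), turning to 0.05 without wildtype 2.

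The remaining parts of the pathway gave no call. Igf2, the other IGF ligand, ranged from 118.6 to 240.8 CPM in libraries labelled knockout and from 102.4 to 221.7 CPM in those labelled wildtype, with knockout 4 and wildtype 1 highest (log2 fold change -0.10, 95% interval -0.80 to 0.59; edgeR adjusted p = 0.862). Its sign turned under 3 of 17 other settings. Ghr, the growth hormone receptor, stood at 960.5, 757.8, 1030.2 and 853.2 CPM in knockout 1 to 4 and at 984.8, 1108.5, 1217.4 and 1239.5 CPM in wildtype 1 to 4. Knockout 3 lay inside the wildtype range (log2 fold change -0.34 ± 0.11; edgeR adjusted p = 0.0787), and Ghr passed without it (-0.41, edgeR adjusted p = 0.0498). None of 6 growth hormone axis genes, 12 PI3K and AKT genes or 3 FoxO factors passed. Their median log2 fold changes were -0.18, -0.14 and -0.14. At an unadjusted p under 0.05, edgeR had 3, 3 and 0 of them, all lower. Of all 15228 genes tested, 4133 had such a p in either direction. DESeq2 called 1 gene of these lists, Ghr, and limma voom 0.

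The genes whose levels ran most like those of Igfbp5 across the 8 libraries, by Pearson r of log2 CPM, were Evi5 (0.98), Chrna4 (0.97) and Trpm7 (0.97). For Igfbp4 they were Tctn2 (0.99), Fzd8 (0.98) and Nek4 (0.98). After each group's mean was subtracted, r was 0.92, 0.89 and 0.87 for the genes beside Igfbp5 and 0.98, 0.97 and 0.97 for those beside Igfbp4. These values were picked as the highest among all genes tested and share depth and scaling, so they describe the libraries and carry no test.

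**Figure D5:**
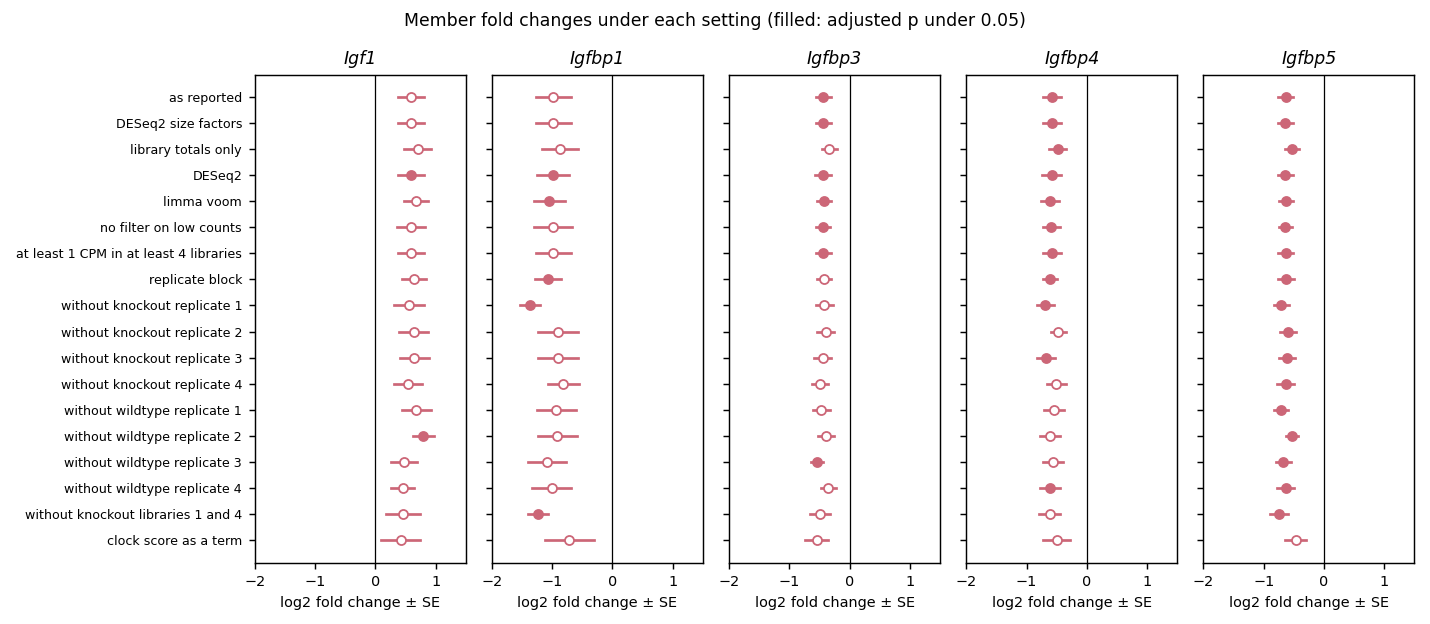
Log2 fold change ± SE (horizontal axis) of Igf1, Igfbp1, Igfbp3, Igfbp4 and Igfbp5 as reported and under each other setting (rows), with filled points for adjusted p under 0.05. The sign of each of the 5 is the same in every row, while the call of Igfbp3 is lost in 11 of 17 settings, that of Igfbp4 in 7 and that of Igfbp5 in 1.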

How the data were processed

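Whole kidney RNA was sequenced after a directional library kit, per the labels' protocols. The authors deposited raw read counts for each gene, 1 file per library, without normalization. The submitters' processing notes name STAR, HTSeq, edgeR and build mm9; versions and annotation were not given in the sources used here. Summary rows of the counter stayed out of library sizes: 13.0% to 16.8% of records matched no feature, 2.17% to 2.42% were ambiguous and 15.4% to 18.0% lacked a unique alignment. Symbols were paired with 32860 of 37583 identifiers.

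Genes were filtered with filterByExpr and scaled by TMM. Under R 4.3.3, the quasi-likelihood test of edgeR 4.0.16 (robust, group as the only term) compared the groups of 4, two-sided. Benjamini-Hochberg adjustment covered 15228 genes, with a threshold of 0.05. Single genes also had an exact permutation test over 70 assignments. Log2 CPM used a prior count of 2. Exon lengths came from GENCODE M21 on a newer build than the counts. Libraries of 1 group were distinct (chi-square per degree of freedom 9.72 to 24.8).

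The members and lists were chosen with earlier results of these data known. Named are all members, pathway genes that passed or that were listed by role (Igf2, Insr, Insrr, Ghr, Pappa, Pappa2), and the 3 genes most correlated with the 2 members of smallest adjusted p. Htra1 and marker genes named singly were chosen after their values were seen. Data were simulated once from these 15228 genes, with 200 genes changed and independent noise in each library. There edgeR recovered 52% of 50 genes changed 1.5-fold and 90% of 50 changed 2-fold, and 7.22% of its calls were false. In the data themselves 1817 genes were called and libraries share differences, so these rates may not carry over. Alternatives were DESeq2's size factors, library totals, DESeq2 1.42.0, limma voom (limma 3.58.1), 2 other filters, a replicate block, each library left out, knockout 1 and 4 left out, and a clock score in the model.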

Additional observations from a re-analysis of the deposited data

Results flagged for a closer look

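In 40 groups of 4 values (the members, the pathway genes named and Tfap2b, in each genotype), the library at one end was set apart in 1 case, its gap to the next being a large part of the group's whole range; chance gives about 1 in 20 groups. The library was knockout 2, highest for Tfap2b (0.8887). No member of the IGF system had such a library.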

How the results depend on the processing

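No paired analysis is implied by the labels: same-numbered libraries correlated above 0.1 in 1 of 4 pairs after group means were removed, and 1 of 4 libraries labelled knockout correlated best with its own number. With the replicate number as a block, 1094 genes passed in place of 1817 and 3 members still fell, Igfbp1, Igfbp4 and Igfbp5, while Igfbp3 did not pass (-0.42, adjusted p = 0.0768) and Igfbp1 did (-1.07, 0.0275). Grb10 also lost its call with the block (0.28, adjusted p = 0.0636). Without knockout 1 and 4, 912 genes passed, and the model with the clock score gave 748, with 0 members and 3 pathway genes called. Because that score differed between the labels, standard errors could grow with it in the model, for Igfbp5 from 0.119 to 0.172. Leaving out single libraries gave 1076 to 1940 genes, 1 to 4 members falling, 0 to 1 rising and 0 to 2 pathway genes falling. DESeq2 called 1 member rising, Igf1, and 1 pathway gene falling. With library totals only, 8 pathway genes rose, and the median of all genes moved by 0.11 on the log2 scale, with 76.5% of calls upward against 52.2%; the median of the members was then -0.13. The sign turned, in each case without a call, for Igf1r (0.068) and Igf2r (0.024) with the clock score and for Igf2 (0.0042) with library totals only. It also turned when single libraries were left out, which gave -0.23 to 0.28 for Igfbp6, -0.0021 to 0.080 for Igfbp7, -0.215 to 0.045 for Insr and -0.383 to 0.0526 for Igf2. The cause of these changes was not tested. Igfbp2 and Igfbp6 rested on 59 to 217 counts per library, and their 95% intervals (lower bounds -0.69 and -0.47) do not leave out a fall as large as that of Igfbp3.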
